A study of Mus musculus with 7 samples.

Results

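The genes described here are YAP, TAZ and a set of genes that the Hippo pathway controls or is controlled by. They are Yap1, Wwtr1 (which encodes TAZ), Ctgf, Cyr61, Ankrd1, Amotl1, Amotl2, Lats2, Axl and Crim1, chosen by symbol from a count table of 24419 genes. All 10 were in the table, and all 10 reached the count filter, which left 11594 genes for testing. RNA came from cultures of LLC1, the Lewis lung carcinoma cell line of the mouse, kept in DMEM with 10% FBS. The libraries of polyadenylated RNA fall into 4 labelled WT DDX54 and 3 labelled DDX54 KD, in which an shRNA was used against Ddx54, which encodes a DEAD-box RNA helicase. Whether the wild-type cells carried a control construct, which shRNA was used and how many clones were taken is not in the labels. Nor is it said there that replicates are independent cultures, and p-values then cover only the spread between these libraries, which may be technical.

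The Hippo pathway is a kinase cascade. The kinases encoded by Stk3 and Stk4 activate the LATS kinases, which phosphorylate YAP and TAZ, so that these coactivators are kept out of the nucleus or degraded. When the cascade is off, YAP and TAZ enter the nucleus, bind TEAD transcription factors and turn on genes of growth, adhesion and matrix, and in carcinomas this output is often raised. Some targets, such as Lats2 and Amotl2, encode inhibitors of YAP and TAZ and so close a feedback loop. Much of this control acts on phosphorylation and location of the proteins, which RNA counts do not measure.

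The transcripts of neither coactivator passed the test, with intervals close to no change, while target and partner genes moved in both directions. Amotl1, Axl and Crim1 fell in knockdown, Lats2 and Cyr61 rose, and Yap1, Wwtr1, Ctgf, Ankrd1 and Amotl2 did not pass the test. Of the 10 genes 5 thus passed an adjusted p under 0.05 in edgeR's quasi-likelihood test, against 29.4% of all tested genes. The 2 rises stand beside a background of 14.1% and the 3 falls beside 15.3%. The median log2 fold change of the 10 genes was -0.18, and that of all tested genes was 0.001. With 10 genes, known as related beforehand and of mixed direction, these counts describe the set and show nothing particular to it.

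TEAD factors recognise a short core, GGAATG, and it is shown here because it is a sequence feature that most of these genes share. RefSeq start sites (GRCm38.p6) were given for 9 of the 10 genes, with 11 starts in all, Ctgf being without an entry. Both strands of the 250 bases before each start were searched. The core was found before 8 of 11 starts, belonging to 7 of 9 genes, and in 12.6% of 32851 mouse promoters of the same length. The 2 starts of Wwtr1 share 1 copy. Each motif is in capitals below, read 5′ to 3′ on the strand of the gene, so that a core on the other strand reads CATTCC.

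Yap1, chr9:8004720-8004749, gene on the minus strand, motif 141 to 136 bases before the start: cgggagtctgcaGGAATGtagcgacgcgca
Wwtr1, chr3:57576029-57576058, gene on the minus strand, motif 136 to 131 bases before the start: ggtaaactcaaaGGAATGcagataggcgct
Axl, chr7:25788949-25788978, gene on the minus strand, motif 233 to 228 bases before the start: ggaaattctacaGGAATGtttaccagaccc
Crim1, chr17:78200157-78200186, gene on the plus strand, motif 79 to 74 bases before the start: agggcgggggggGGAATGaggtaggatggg
Amotl2, chr9:102717727-102717756, gene on the plus strand, motif 65 to 60 bases before the start: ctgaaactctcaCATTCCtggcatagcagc
Ankrd1, chr19:36120037-36120066, gene on the minus strand, motif 210 to 205 bases before the start: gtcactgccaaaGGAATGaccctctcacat
Ankrd1, chr19:36119950-36119979, gene on the minus strand, motif 123 to 118 bases before the start: gacactaagtctGGAATGaaaattcacctg

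Cyr61 is shown over the full 250 bases, because it is a classical YAP target with the core 98 to 103 bases before its start.
Cyr61, chr3:145649986-145650235, gene on the minus strand: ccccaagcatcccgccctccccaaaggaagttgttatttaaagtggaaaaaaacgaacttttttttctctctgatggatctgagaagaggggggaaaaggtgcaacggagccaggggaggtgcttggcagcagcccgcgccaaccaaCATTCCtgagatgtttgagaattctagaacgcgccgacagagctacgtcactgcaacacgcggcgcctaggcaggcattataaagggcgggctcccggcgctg

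No copy lay before the starts of Amotl1 or Lats2. The stretches searched for these genes lie inside their GENCODE spans, so the bases before their annotated 5′ ends were not searched. An AP-1 site (TGANTCA) was before 0 of the 11 starts, against 6.75% of all promoters, and a CArG box, the site of serum response factor, was also before 0, against 1.47%. No motif therefore overlapped another. In the GENCODE annotation the motif windows of Amotl2 and Ankrd1 lie in an exon, and the other motif windows lie upstream of the gene. A match is a description of letters and does not show that a factor binds, and no match says nothing beyond these windows. Genes with the core included 2 that fell (Axl and Crim1), 1 that rose (Cyr61) and 4 that did not pass (Yap1, Wwtr1, Amotl2 and Ankrd1).

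**Figure D1:**
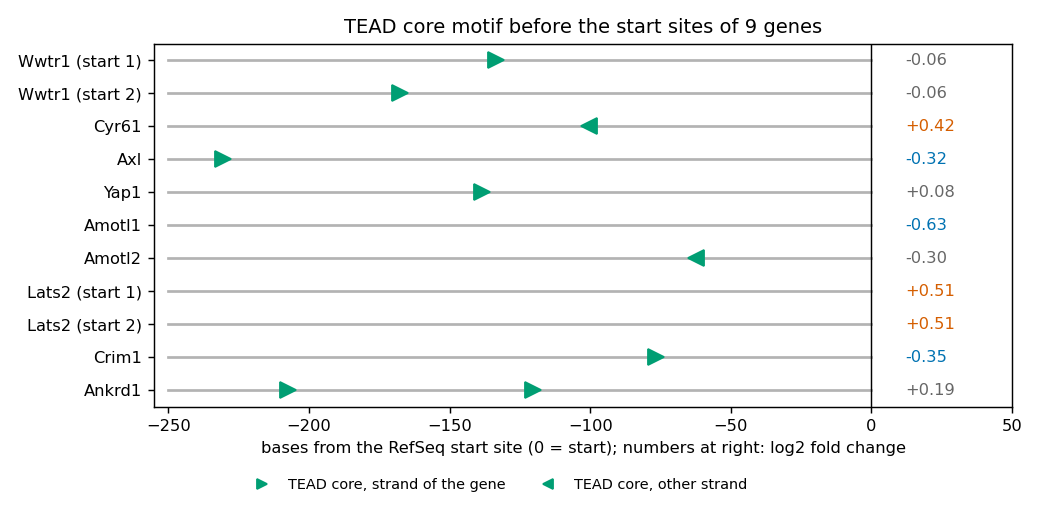
Position of the TEAD core before the 11 RefSeq start sites of 9 genes. The horizontal axis is the distance in bases from the start, triangles mark the core by strand, and the number at right is the log2 fold change in knockdown, coloured where it passed the test. Genes with a core carry values from -0.35 to 0.42, and Amotl1 (-0.63) and Lats2 (0.51) carry none.

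Libraries held 14987324 to 18673395 counts. Ddx54 was at 78.6 to 83.2 CPM (counts per library size, scaled by TMM factors) in wild-type, against 39.2 to 45.9 CPM with the shRNA, so no library went against its label. The share of Rn45s, the ribosomal RNA precursor, was 10.7 to 12.5% of counts in wild-type and 7.96 to 9.07% in knockdown, and the 5 calls above were kept when it was removed. Of the cell type markers, the summed epithelial list was at 238 to 248 CPM in wild-type cells, and 148 to 168 CPM in knockdown, with 3 of 8 genes (Krt5, Krt14 and Cldn4) at 0 in every library and Epcam and Cdh1 at means under 0.05 CPM. Most of that sum was Krt18, which fell from 217 ± 4.77 to 132 ± 4.02 CPM, and Krt19 fell from 4.39 ± 0.49 to 1.08 ± 0.54 CPM, while Krt8 was at 20.3 ± 2.20 and 23.6 ± 7.61 CPM and did not pass (0.22, adjusted p = 0.373, edgeR). The fibroblast list was at 1045 to 1235 and 1059 to 1126 CPM, nearly all of it Col3a1 (1105 ± 89.4 and 1059 ± 32.4 CPM), with Thy1 at 0, Col1a1, Col1a2, Lum and Fap at means of at most 1.03 CPM, and Pdgfra at 18.99 ± 0.78 and 24.5 ± 1.23 CPM without passing (adjusted p = 0.0578). The endothelial list stayed under 0.79 CPM with 4 of 7 genes (Cdh5, Tek, Emcn and Cldn5) at 0. The leukocyte list ranged from 2.18 to 5.16 CPM, nearly all of it Cd68 (3.63 ± 1.44 and 3.74 ± 0.89 CPM), with Cd3e at 0. The part of the fall of Krt18 and Krt19 in the results was not tested. In a bulk sample, fewer cells of a type and less RNA per cell cannot be told apart.

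Levels of different genes were compared per exon length, in CPM divided by exon length in kilobases (RPKM). In wild-type cells the order was Axl at 65.6 ± 3.79, Wwtr1 at 41.2 ± 1.78, Amotl1 at 32.6 ± 2.50, Crim1 at 21.2 ± 1.02 and Yap1 at 15.3 ± 0.41 RPKM (SD, n = 4). These 5 levels were each separated from the next by non-overlapping library values. Cyr61 followed at 12.8 ± 3.40 RPKM and overlapped both Yap1 above it and Ankrd1 below it, the last at 8.21 ± 1.23 RPKM. Lats2 (2.89 ± 0.47) and Amotl2 (2.61 ± 0.45 RPKM) overlapped each other. Ctgf was last at 0.28 ± 0.27 RPKM. In knockdown Cyr61 stood at 17.1 ± 0.90 RPKM, overlapping Crim1 (16.6 ± 0.90), which in turn overlapped Yap1 (16.1 ± 0.63; SD, n = 3), while Lats2 (4.11 ± 0.05) and Amotl2 (2.12 ± 0.21 RPKM) no longer overlapped.

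**Figure D2:**
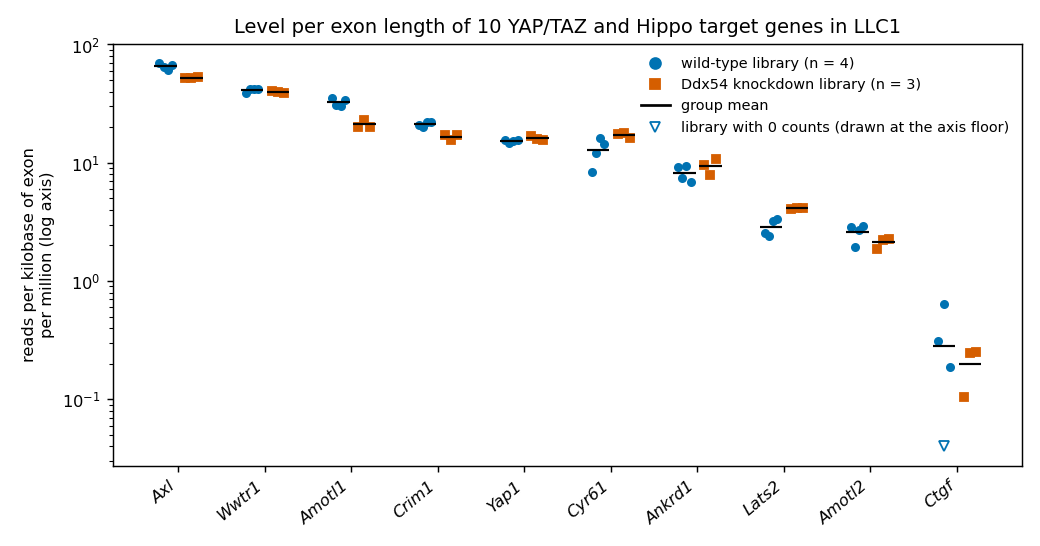
Level of each gene per exon length (RPKM, log axis) in each wild-type (circles, n = 4) and Ddx54 knockdown library (squares, n = 3), with group means as bars and a library with 0 counts drawn as an open triangle at the axis floor. Axl at 65.6 RPKM and Ctgf at 0.28 RPKM mark the ends of the wild-type order.

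Yap1 encodes the transcriptional coactivator YAP and maps to chromosome 9 (7931999 to 8004596, minus strand) (GRCm38, GENCODE, protein-coding gene ENSMUSG00000053110.13). Wild-type libraries held 143, 136, 141 and 145 CPM of it, and those of the knockdown 156, 148 and 145 CPM. Knockdown 1 and 2 were above every wild-type library, and knockdown 3 lay within the wild-type range, so the groups overlapped. The log2 fold change was 0.08 (95% interval -0.06 to 0.22, adjusted p = 0.448, edgeR), so the knockdown level lay between 95.6% and 117% of wild-type by this interval. Wwtr1, on chromosome 3 (57455649 to 57575910, minus strand; ENSMUSG00000027803.14), encodes the paralogous coactivator TAZ. It was at 184, 200, 202 and 201 CPM in wild-type, against 192, 190 and 185 CPM with the shRNA. The groups overlapped through wild-type 1, which was the lowest of all 7 libraries, and the other wild-type libraries were above every knockdown library. The log2 fold change was -0.06 (95% interval -0.19 to 0.08, adjusted p = 0.581, edgeR), or 87.5% to 106% of wild-type. For neither coactivator did the interval reach a change of the size seen in Amotl1.

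By the root mean square difference of centred log2 CPM over the 7 libraries, the genes whose profile was nearest to that of Yap1 among 7835 genes of at least 10 CPM were Dync1i2, a dynein intermediate chain gene, at 0.02 and Pafah1b2, at 0.02 log2 units. Yap1 was nearly flat over the libraries (136 to 156 CPM), and near matches to a flat profile are easily found among this many genes. The genes nearest to Ctgf were Snhg20 at 0.34 and Cacna1a at 0.34, much looser matches. Ctgf rested on few reads and was itself below the 10 CPM required of the other genes. Why its matches were loose was not tested. Shared control was not tested for either gene.

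Among the regulators of YAP and TAZ, Amotl1 fell and Lats2 rose. Amotl1 encodes an angiomotin-like scaffold that binds YAP at cell junctions and in the cytoplasm, and maps to chromosome 9 (14541966 to 14645056, minus strand; ENSMUSG00000013076.17). Its wild-type libraries were at 356, 310, 305 and 344 CPM and its knockdown libraries at 202, 232 and 203 CPM. The ranges did not overlap, as for 17.6% of tested genes in this direction. The level in knockdown was 64.7% of wild-type (log2 fold change -0.63, SE 0.071, adjusted p = 1.70e-08, edgeR), the largest change among the members that passed the test, and the two-sided p of the exact permutation of libraries (35 splits) was 0.0286, the smallest it can give.

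Amotl2, its paralog on chromosome 9 (102716672 to 102733418, plus strand; ENSMUSG00000032531.15), was at 17.9, 12.2, 17.1 and 18.5 CPM in wild-type, against 11.8, 13.9 and 14.2 CPM with the shRNA. Wild-type 2 lay among the knockdown values and the other wild-type libraries lay above them. The log2 fold change of -0.30 did not pass (95% interval -0.68 to 0.07, adjusted p = 0.236, edgeR), nor did it without wild-type 2 (-0.42, adjusted p = 0.0799).

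Lats2, which encodes a kinase that phosphorylates YAP and TAZ, maps to chromosome 14 (57689662 to 57758388, minus strand; ENSMUSG00000021959.16). It was at 17.9, 16.8, 22.6 and 23.2 CPM in wild-type, against 28.3, 28.9 and 28.7 CPM with the shRNA. All knockdown libraries were above all wild-type libraries, as for 17.5% of tested genes, and they differed from each other far less than the wild-type libraries did. The log2 fold change was 0.51 (SE 0.15, adjusted p = 0.00846, edgeR; exact two-sided permutation p = 0.0286). In the annotation 42.4% of the exon length of Lats2 is shared with Gm49361, a gene model on the same strand that has no row of its own in the count table, so reads of the 2 models cannot be told apart.

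**Figure D3:**
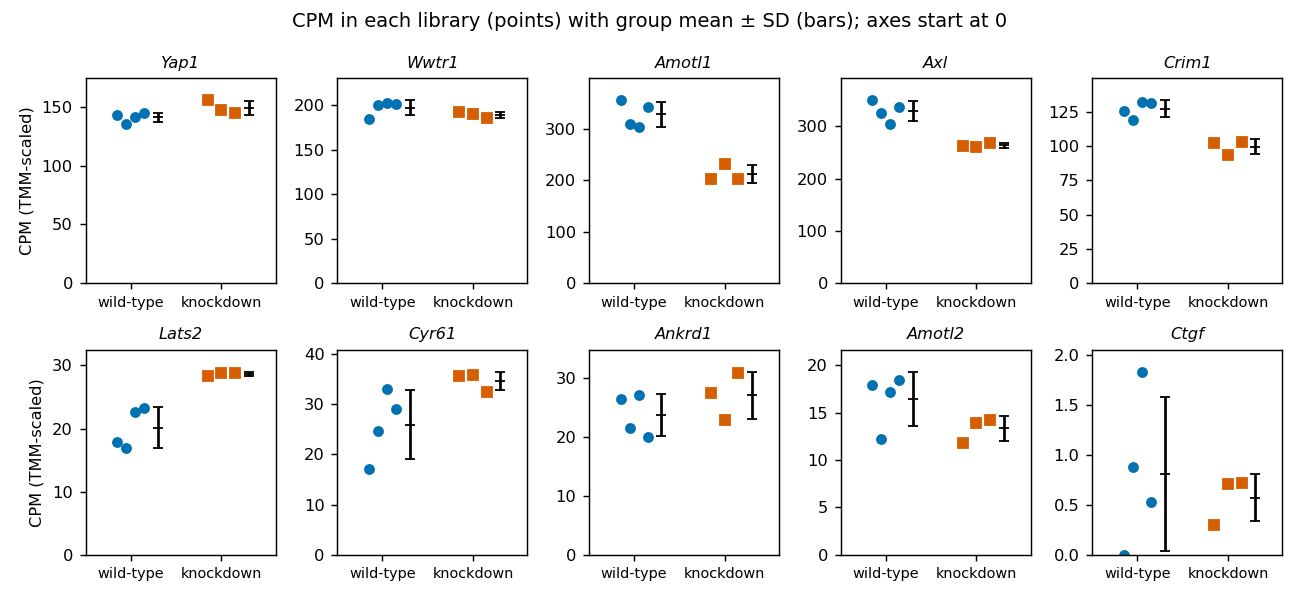
CPM of each gene in 4 wild-type (circles) and 3 Ddx54 knockdown libraries (squares), with group mean ± SD, each panel on its own axis from 0. Amotl1, Axl and Crim1 are lower and Lats2 is higher in every knockdown library, whereas the wild-type libraries of Cyr61 spread from 17.0 to 33.01 CPM.

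Axl and Crim1, members of the set that encode membrane proteins, fell, and membrane protein genes were not tested as a class. Axl, a receptor tyrosine kinase of the TAM family that is activated by GAS6 and linked to invasion and drug resistance in carcinomas, maps to chromosome 7 (25757273 to 25788705, minus strand; ENSMUSG00000002602.16). It was at 350.1, 326, 305 and 338 CPM in wild-type, against 263, 260.2 and 269 CPM with the shRNA. The groups did not overlap. Axl was the most abundant of the 10 genes per exon length in both groups, and its knockdown level was 80.1% of wild-type (log2 fold change -0.32, SE 0.064, adjusted p = 0.000213, edgeR; exact two-sided permutation p = 0.0286). Crim1, a transmembrane protein with cysteine-rich repeats that binds BMPs, maps to chromosome 17 (78200248 to 78376592, plus strand; ENSMUSG00000024074.8). It was at 126, 119, 133 and 132 CPM in wild-type, against 102, 93.4 and 103 CPM with the shRNA. These groups did not overlap either, and the log2 fold change was -0.35 (SE 0.077, adjusted p = 0.000561, edgeR; exact two-sided permutation p = 0.0286).

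The best known targets are the matricellular genes Cyr61 and Ctgf and the nuclear cofactor Ankrd1, and of these only Cyr61 passed the test, as higher. Cyr61, on chromosome 3 (145646976 to 145649981, minus strand; ENSMUSG00000028195.4, Ccn1 in the annotation), encodes a secreted integrin ligand. It was at 17.0, 24.7, 33.01 and 29.1 CPM in wild-type, against 35.5, 35.7 and 32.5 CPM with the shRNA. The wild-type libraries spread widely, with a coefficient of variation of 26.5% against 5.26% in knockdown, and wild-type 3 overlapped the knockdown values. Cyr61 passed the test at 0.42 on the log2 scale (SE 0.16, adjusted p = 0.043, edgeR), although the exact two-sided permutation test gave p = 0.143. Without wild-type 1, the lowest library, the change was 0.26 and the call was lost (adjusted p = 0.181, edgeR). It was also lost without wild-type 2 (adjusted p = 0.0816), without knockdown 1 (0.128), 2 (0.135) or 3 (0.0666), with DESeq2 (0.0629) and at equal depth (0.0538).

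Ctgf, on chromosome 10 (24595442 to 24598683, plus strand; ENSMUSG00000019997.11, Ccn2 in the annotation), encodes connective tissue growth factor, commonly read as a marker of YAP activity. It held only 0, 13, 28 and 9 counts in the wild-type libraries and 5, 13 and 11 counts in the knockdown libraries, 79 in all. A count of 0 in wild-type 1 allows a level of up to 0.164 CPM (3 counts, counting error only). Neither group was high, and 2.8% of tested genes had a mean level at or below that of Ctgf. The log2 fold change of -0.48 had an interval from -2.47 to 1.51 (adjusted p = 0.764, edgeR) and was 0.30 without wild-type 3 and 0.63 with limma-voom, so no direction could be read at this depth. In the annotation 23.2% of its exon length is shared with the antisense gene Gm15270, which has no row in the table. Per exon length the wild-type mean of Cyr61 was 12.8 RPKM and that of Ctgf 0.28 RPKM, so these related genes stood far apart in this line.

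Ankrd1, on chromosome 19 (36111961 to 36120099, minus strand; ENSMUSG00000024803.9), encodes an ankyrin repeat protein best known from stressed muscle. It was at 26.4, 21.5, 27.1 and 19.9 CPM in wild-type, against 27.4, 22.9 and 30.8 CPM with the shRNA. The groups overlapped, and the log2 fold change of 0.19 did not pass (95% interval -0.12 to 0.49, adjusted p = 0.381, edgeR).

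**Figure D4:**
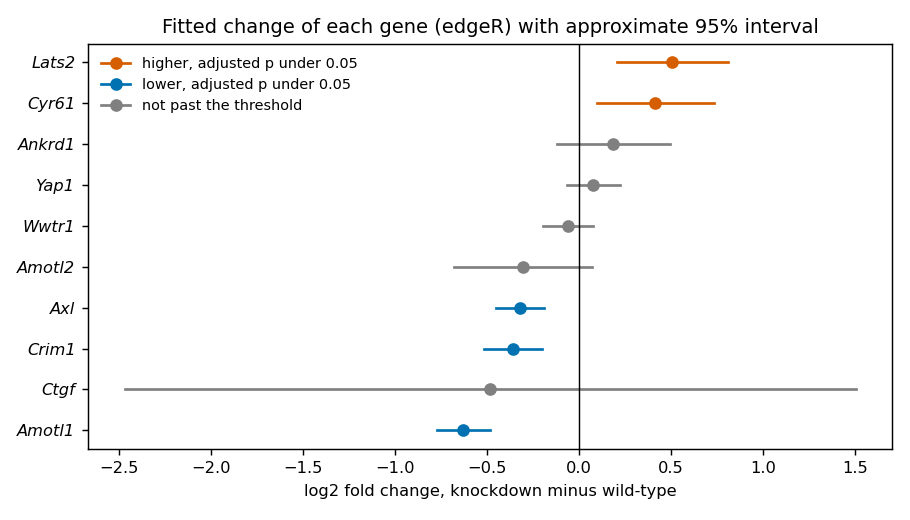
Log2 fold change (knockdown minus wild-type) of each gene with its approximate 95% interval from the edgeR fit, coloured by direction where adjusted p was under 0.05. The coactivators Yap1 and Wwtr1 have narrow intervals around 0, and the interval of Ctgf runs from -2.47 to 1.51.

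Genes of the Hippo kinases and scaffolds, a list that also holds Lats1, Mob1a, Mob1b and Amot, moved in both directions. Of 25 listed genes 23 were tested, 5 were higher and 4 were lower (median log2 fold change 0.10). That is 39.1% of those tested, beside 29.4% of all tested genes. Map4k4, a kinase that can activate LATS in parallel to the kinases encoded by Stk3 and Stk4, fell from 892 ± 32.6 CPM (SD, n = 4) to 537 ± 13.7 CPM (SD, n = 3; log2 fold change -0.73, adjusted p = 1.34e-11, edgeR). The paralogous kinases Stk3 and Stk4 went opposite ways. Stk3 was at 79.3, 65.3, 76.5 and 65.5 CPM in wild-type, against 47.0, 51.7 and 54.8 CPM with the shRNA (-0.49, adjusted p = 0.00034). Stk4 was at 81.9, 80.6, 92.4 and 95.8 CPM in wild-type, against 114, 113 and 114 CPM with the shRNA (0.37, adjusted p = 0.000558). Neither gene's groups overlapped. Taok1, a kinase upstream of both, rose by 0.48 (adjusted p = 8.77e-07, edgeR).

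The STRIPAK complex, a phosphatase assembly that restrains the Hippo kinases, had 1 of 11 tested members higher and 1 lower (median 0.03), or 18.2% beside the 29.4% of all tested genes. Pdcd10 rose (0.57, adjusted p = 0.013) and Mob4 fell (-0.22, adjusted p = 0.0433, edgeR). Pdcd10 lost its call without knockdown 2 or 3 (adjusted p = 0.0606 and 0.0717). Mob4 lost its call without wild-type 1 or 4 or knockdown 1 or 3 (adjusted p = 0.0616 to 0.158).

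The TEAD factors, the DNA-binding partners of YAP and TAZ, had 5 of 8 listed genes tested, cofactors included, with 1 lower and 0 higher (median -0.24), beside 15.3% and 14.1% of all tested genes. Tead1 was at 231, 173, 235 and 243 CPM in wild-type, against 179, 186 and 186 CPM with the shRNA. Wild-type 2 was below all knockdown libraries and the other wild-type libraries were above them. Its fall of -0.26 passed (adjusted p = 0.0179, edgeR), but not without wild-type 3 (adjusted p = 0.061) or 4 (0.0763) or knockdown 1 (0.0874) or 2 (0.0524). Tead2 went from 52.0 ± 1.69 to 44.3 ± 2.24 CPM and did not pass (-0.23, adjusted p = 0.101). Vgll1, Vgll2 and Vgll3, cofactors that compete for TEAD, had 0 counts in every library.

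The ubiquitin ligase and casein kinases that mark YAP and TAZ for degradation had 2 of 7 members higher and 2 lower (median 0.05), beside 14.1% and 15.3% of all tested genes. Fbxw11, an F-box subunit that recognises phosphorylated YAP and TAZ, fell from 67.6 ± 2.27 to 46.0 ± 3.90 CPM (-0.56, adjusted p = 5.12e-05, edgeR), and Csnk1e, a casein kinase, fell from 204 ± 8.43 to 139.8 ± 4.32 CPM (-0.54, adjusted p = 1.84e-07). Cul1, the scaffold of the ligase, rose (0.29, adjusted p = 0.000467), as did Csnk1d (0.20, adjusted p = 0.0427). Csnk1d lost its call without wild-type 1 or 4 or knockdown 1 or 3 (adjusted p = 0.0595 to 0.224).

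Further genes of a published YAP and TAZ target signature passed the test at a share near the background. Of 15 listed genes 12 were tested, 1 was higher and 2 were lower (25% beside 29.4% of all tested genes), with a median of -0.04, while Igfbp3, Ccdc80 and Nt5e did not reach the filter. Gadd45a, a growth-arrest gene with many other regulators, was at 90.2, 85.4, 92.5 and 85.7 CPM in wild-type, against 13.6, 16.7 and 17.4 CPM with the shRNA (-2.48, adjusted p = 1.71e-17, edgeR). It stood far from the rest of the list, whose other fall was Rbms3, an RNA-binding protein gene (-0.78, adjusted p = 0.00244). Asap1, an ARF GTPase-activating protein gene, rose by 0.20 (adjusted p = 0.033, edgeR) and lost the call without wild-type 2 or 3 or knockdown 1 or 2 (adjusted p = 0.0646 to 0.258). Ptpn14 is a member of both this list and the list of kinases and scaffolds.

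Genes of the actin cytoskeleton controlled by serum response factor (SRF) and its MRTF cofactors share several targets and mechanical inputs with YAP. In that list 8 of 16 tested genes fell and 0 rose (median -0.30), where 15.3% of all tested genes fell and 14.1% rose. Srf itself was at 77.6, 94.5, 93.9 and 92.4 CPM in wild-type, against 59.5, 51.5 and 60.6 CPM with the shRNA (-0.65, adjusted p = 2.44e-06, edgeR), with no overlap. Vcl, the focal adhesion protein vinculin, was at 134, 103, 115 and 115 CPM in wild-type, against 55.01, 67.1 and 58.9 CPM with the shRNA (-0.95, adjusted p = 9.92e-10). Zyx, encoding zyxin (-0.58), the actin-binding gene Tagln2 (-0.41) and the calponin gene Cnn2 (-0.31) also fell, as did Mkl1, Cnn3 and Tpm2, named here after their values were seen. Calls of the actin genes Actg1 and Acta2 changed between alternatives, and both are named after their values were seen. Actg1 was at 4.58 to 6.52 CPM in wild-type and at 8.89, 6.78 and 41.0 CPM in knockdown, so knockdown 3 stood far above all other libraries. It did not pass (1.78, adjusted p = 0.135, edgeR), but passed as higher with DESeq2 (adjusted p = 0.0331) and without knockdown 2 (adjusted p = 0.0361, edgeR). Acta2 was at 3.05 to 3.99 CPM in wild-type and at 2.39, 0.71 and 1.37 CPM in knockdown. It did not pass either (-1.23, adjusted p = 0.0542, edgeR), but passed as lower with DESeq2 (adjusted p = 0.0246) and without knockdown 1 (-1.75, adjusted p = 0.0205, edgeR).

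Relatives of the members were listed as CCN genes, TAM receptors with their ligands, and the ankyrin repeat genes Ankrd2 and Ankrd23. Of these 10 listed genes 7 were tested, 1 higher and 2 lower (median 0.17), beside 14.1% and 15.3% of all tested genes. The median was the value of Ankrd23, with Mertk, Gas6 and Nov below it and Wisp1, Tyro3 and Pros1 above it. Nov, a further CCN gene, fell from 7.33 ± 2.03 to 3.86 ± 0.57 CPM (-0.92, adjusted p = 0.0164, edgeR), with the call lost without wild-type 2 (adjusted p = 0.0754), knockdown 1 (0.0511) or knockdown 3 (0.0762). Mertk, a TAM receptor like Axl, was at 1.80 ± 0.68 CPM in wild-type cells, and 0.24 ± 0.36 CPM in knockdown, where its libraries held 1, 12 and 0 counts (-2.83, adjusted p = 0.0158, edgeR). It was -5.55 without knockdown 2, and the call was lost without knockdown 1 (adjusted p = 0.0922) or 3 (0.0927). Pros1, encoding protein S, a TAM receptor ligand, rose from 36.3 ± 3.18 to 46.5 ± 1.87 CPM (0.36, adjusted p = 0.0171), with the call lost without wild-type 1 (adjusted p = 0.0603) or knockdown 1 (0.0812).

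**Figure D5:**
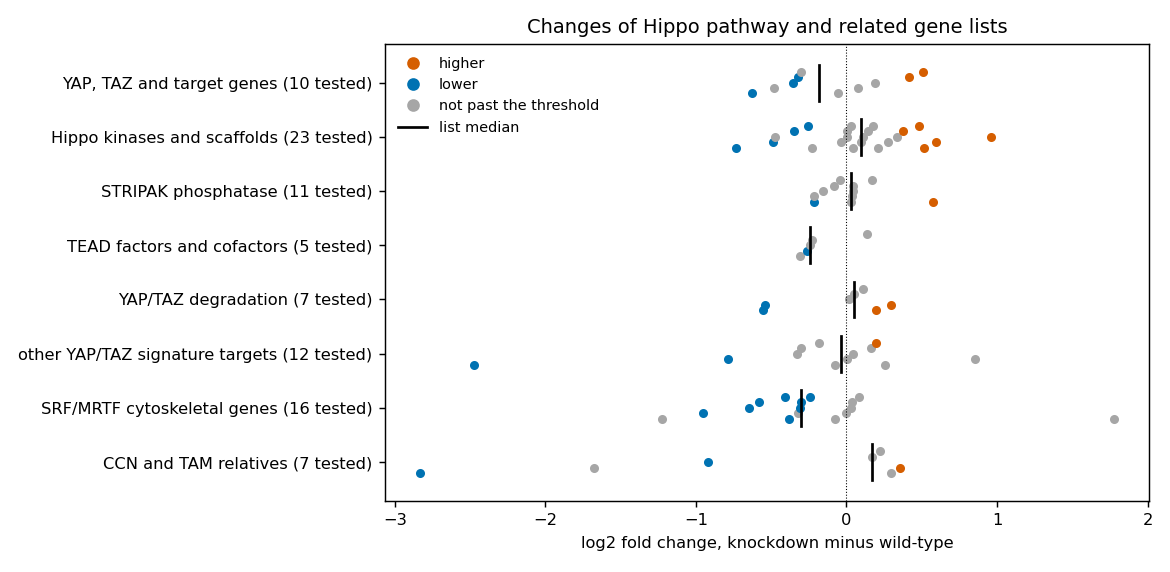
Log2 fold change (knockdown minus wild-type) of every tested gene of the YAP and TAZ set and of 7 pathway lists, coloured where adjusted p was under 0.05, with the list median as a bar. The SRF and MRTF list has 8 blue points and no orange point, and the kinases and scaffolds spread to both sides.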

How the data were processed

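Polyadenylated RNA of 7 LLC1 libraries was measured, 4 wild-type and 3 Ddx54 knockdown. The authors deposited raw read counts per gene symbol, not normalized. Trimmomatic, STAR, HTSeq and the build mm10 are named per the submitters' processing notes; the versions and roles are not given in these sources. The annotation, strand setting and handling of multi-mapped reads are not given in these sources, so reads of a gene and its antisense partner cannot be told apart. The table has 0 further sample columns, and 9012 genes had no count.

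The fit used R 4.3.3 and edgeR 4.0.16. The filter was filterByExpr, scaling was by TMM factors, and the robust quasi-likelihood test compared the groups with no covariate. Benjamini-Hochberg adjustment ran over all 11594 tested genes, with a threshold of 0.05. Positive log2 fold changes are higher in knockdown. Each SE was derived from the log2 fold change and the F statistic, and the 95% interval uses it with the test's degrees of freedom, so both are approximate. RPKM divides CPM by the merged exon length in GENCODE for GRCm38 (mm10). Exon lengths matched by symbol or RefSeq synonym for 99.4% of tested genes. On simulated data of 11473 genes the fit recovered 47.8% of 67 changes of log2 size 0.5, 80.3% of 66 of size 1 and 95.5% of 66 of size 2. It falsely called 6 of 11274 unchanged genes. The share of genes changed was far smaller there than the 29.4% that passed in the data. The adjusted p depends on that share, so these rates need not hold for the data. A gene that did not pass may still have changed, above all by a small amount. Replicates of a group differed by more than sampling noise (chi-square per degree of freedom 8.52 to 16.9).

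The members and lists were chosen with earlier results of these data known. All 10 members were named, and from each pathway list up to 5 genes past the threshold by smallest p, or, with fewer than 2 past it, the first 2 by p. A gene that this rule named is not reported here. Alternatives were DESeq2 1.42.0, a block for the replicate number, limma-voom (limma 3.58.1), upper-quartile or RLE factors, no filter or at least 50 counts in 3 libraries, equal depth by thinning, Rn45s removed, and each library left out in turn. The fit with the block left out wild-type 4, which has no knockdown library of its number. Ratios of paralogs were added after the data were seen.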

Additional observations from a re-analysis of the deposited data

Results flagged for a closer look

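Of 35 quantities searched in the wild-type group of 4 (the library totals and the level of each gene named by rule), 2 had a library far from the other wild-type libraries, where chance gives about 1.75. Wwtr1 was at 184 CPM in wild-type 1 against 200.1 to 202 CPM in the others. Without wild-type 1 its log2 fold change was -0.09 and still did not pass (adjusted p = 0.381, edgeR). Srf was at 77.6 CPM in wild-type 1 against 92.4 to 94.5 CPM in the others. Srf kept its call under all 16 alternatives.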

How the results depend on the processing

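Over 16 alternatives the 3 falls (Amotl1, Axl and Crim1) and the rise of Lats2 kept their direction and their call, and none of the 5 members that did not pass did so under any alternative. Members higher in knockdown numbered 1 with DESeq2 and 1 at equal depth, and 1 to 2 when a library was left out, because Cyr61 lost its call. Members lower numbered 3 throughout. Log2 fold changes ran from -0.70 to -0.59 for Amotl1, -0.36 to -0.29 for Axl, -0.39 to -0.31 for Crim1, 0.43 to 0.59 for Lats2 and 0.26 to 0.55 for Cyr61. Ddx54 ran from -0.93 to -0.83. Ctgf had no value with at least 50 counts in 3 libraries, and its sign changed between alternatives, none of which passed. Genes higher numbered 1222 to 1744 and genes lower 1409 to 1860. Of 22 pathway genes named with a call, 14 kept it under every alternative run and 8 lost it under at least 1. Lats1, Tgfb2, Dock5 and Tyro3 (higher) and Fgfr1op2 and Gas6 (lower) passed only when a library was left out, among the leave-one-out and DESeq2 fits.

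No pairing of the libraries by replicate number was seen, and the labels do not say whether there was one. Same-numbered libraries had correlations of -0.04, -0.02 and -0.01 of their deviations from the group means. No library correlated best with its own number. With the replicate number as a block, 1374 genes were higher and 1465 lower, Ddx54 was at -0.89, and 2 members were higher and 3 lower, as without it. Mob4 (adjusted p = 0.178), Tead1 (0.112) and Csnk1d (0.0959, edgeR) did not pass in that fit. Each of these genes also lost its call without wild-type 4 and with no block. Mob4 also missed the threshold with no low-count filter (0.0544) and Csnk1d with upper-quartile factors (0.0537). Genes at a few CPM, Ctgf and Mertk above all, are limited by depth.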

Other observations

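Ratios of paralogs within a library do not depend on the scaling, and 3 such pairs were compared after their values were seen. The ratio of Stk4 to Stk3 counts was 1.03, 1.23, 1.21 and 1.46 in the wild-type libraries and 2.42, 2.19 and 2.08 in the knockdown libraries, with no overlap (exact two-sided permutation p = 0.0286, 0.0857 adjusted over the 3 pairs). The ratio of Amotl1 to Amotl2 averaged 20.4 ± 3.40 over 4 wild-type libraries and 16.01 ± 1.52 (SD) over 3 knockdown libraries (exact permutation p = 0.0571, adjusted 0.0857), and the ranges did not overlap. The ratio of Wwtr1 to Yap1 was 1.40 ± 0.08 in wild-type and 1.27 ± 0.03 in knockdown (exact permutation p = 0.0857, adjusted 0.0857), with overlap. None of the 3 passed, and the smallest unadjusted p that 4 against 3 libraries allow is 0.0286.

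Yap1 lies near a cluster of matrix metalloproteinase genes on chromosome 9. Of 11 other tested genes within 1 Mb of it, 2 were lower, 1 was higher and 8 did not pass, with a median log2 fold change of 0.02, where 29.4% of all tested genes passed. These genes were looked up after results were known. Mmp3 fell from 144 ± 3.06 to 42.0 ± 3.88 CPM (-1.78) and Mmp13 from 14.3 ± 2.76 to 4.68 ± 1.04 CPM (-1.61), while Arhgap42, a GTPase-activating protein gene on the other side, rose from 24.9 ± 4.16 to 35.3 ± 1.75 CPM (0.50, adjusted p = 0.0051, edgeR). Of the inhibitor of apoptosis genes between Yap1 and the metalloproteinases, Birc3, the nearer, was at 1.96 ± 0.50 and 0.81 ± 0.74 CPM (-1.27, adjusted p = 0.175, edgeR), and Birc2 at 21.0 ± 1.42 and 21.3 ± 1.03 CPM (0.02, adjusted p = 0.935). Neither passed.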
